A study of Mus musculus with 10 samples.

Results

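Cadherins and protocadherins were examined in FACS-sorted YFP-positive cells of the e10.5 mouse spinal cord, the population from which somatic motor neurons (MNs) arise. The 32 members were listed by name, namely 5 type I cadherins (Cdh1, Cdh2, Cdh3, Cdh4 and Cdh15), 13 type II cadherins (Cdh5 to Cdh12, Cdh18, Cdh19, Cdh20, Cdh22 and Cdh24), 2 other cadherins (Cdh13 and Cdh26) and 12 non-clustered protocadherins, out of 48964 genes with counts or empty bins in the deposited tables. RNA-seq had been performed on 5 control and 5 cdKO samples. All samples carried 1 copy of Olig2-Cre, which acts in the progenitors of MNs, and of the Rosa26R-YFP reporter that marks their progeny. Controls (Oc1+/Flox, Oc2+/Flox) also carried 1 floxed allele of each gene, so Cre could remove 1 copy of Oc1 and of Oc2 in them, and cdKO samples (Oc1-/Flox, Oc2-/Flox) had a null allele opposite the floxed one. As a model the sort is broader than MNs, because Olig2-Cre also labels V3 interneurons ventral to them. The labels do not say whether the samples came from separate embryos, so each p-value measures only the spread between these samples.

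Cadherins are calcium-dependent adhesion molecules whose outer domains bind those of cadherins on neighbouring cells and whose inner ends are tied to actin by catenins. In the ventral spinal cord type I cadherins such as N-cadherin are shared by progenitors and neurons, whereas type II cadherins appear in combinations that differ between MN pools and help to sort MN cell bodies into columns and pools. Protocadherins carry similar outer repeats without the catenin-binding tail of the classical cadherins.

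Each sample held between 63932395 and 107709534 counts over all bins in control and between 72315782 and 84249157 in cdKO, so 3 counts, taken here as the floor for an undetected gene, stood for 0.0288 to 0.0591 CPM (gene counts divided by a library size adjusted with TMM factors). These floors cover counting error only. The first exon of Oc1, one of the targeted genes, lay between 0.768 and 2.85 CPM in control and between 0 and 0.202 CPM in cdKO samples, and the groups did not overlap (exact two-sided permutation test, p = 0.00794, the smallest that 5 against 5 samples allow). Over all its bins Oc2 was between 0.988 and 9.41 CPM in control and between 1.35 and 19.2 CPM in cdKO, so its level did not check the labels. MN markers were present in every sample, with a sum over 9 genes of 539 to 779 CPM in control and 405 to 922 CPM in cdKO, and so were markers of MN progenitors, with a sum over 7 genes of 794 to 2264 CPM and 883 to 1729 CPM. Most of the progenitor sum was Hes5, and Olig2 lay between 37.5 and 87.8 CPM in control and between 26.3 and 71.2 CPM in cdKO. Within the MN list Isl1, a transcription factor of postmitotic MNs, was the 1 of 9 tested genes with an unadjusted p under 0.05, beside 0.824% of all tested genes lower in cdKO. It lay at 253, 135, 208, 182 and 347 CPM in control and at 95.9, 164, 97.8, 159 and 118 CPM in cdKO, a log2 fold change of -0.83 (SE 0.31, adjusted p = 0.939, edgeR), and the groups overlapped through control replicate 2. The part of this difference in the level of any cadherin was not tested. Markers of V3 interneurons summed to 21.3 to 99.8 CPM over 3 genes in control and 18.5 to 38.7 CPM in cdKO. The highest of these sums, in control replicate 5, was mostly Nkx2-9, at 84.6 CPM. Sim1 was at 0.148 CPM in that sample, its lowest value of the 10 samples. Macrophage markers summed to 3.14 to 5.27 CPM in control and 3.3 to 6.94 CPM in cdKO over 6 genes. Most of this was Csf1r, and every other gene of that list was at most 0.572 CPM. Erythroid markers summed to 0.902 to 19 CPM in control and 2.83 to 66.2 CPM in cdKO over 7 genes, with the highest sum in cdKO replicate 5. Of the 6 tested, the globin genes Hba-a1 and Hba-a2 were higher in cdKO at unadjusted p of 0.0434 and 0.0497 (edgeR). The adjusted p was 0.939 for both, and 4.17% of all tested genes were higher at an unadjusted p under 0.05. Both genes were also highest in cdKO replicate 5, at 13.1 and 2.96 CPM. Because these are bulk samples, fewer cells of a type and less RNA per cell cannot be told apart.

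cdKO replicate 5 stood apart along the transcripts. The exon bins that make up at least the last 1000 bases of each gene held 59.9% of that sample's counts over all genes, against 34.5% to 40.9% in the other 9 samples. For Cdh2 these bins, 1477 bases long, took 50.7% of the counts in cdKO replicate 5, 15.4% in control replicate 5 and 5.71% to 7.81% in the other 8 samples. For Pcdh18 the share was 97.5% in cdKO replicate 5, 36.6% in control replicate 5 and 23.3% to 28.2% elsewhere. Of Pcdh8, the 1597-base bin with the most counts (chr14:79769096-79770692) received 3 counts in cdKO replicate 5, 178 in control replicate 5 and 1168 to 2014 in the others. That bin held 30.7% of the Pcdh8 counts, the same share as lay on bins shared with the transcript Gm9748. Not all members had a shift toward the last bases on their counted bins. Of the 20 tested members with counts in cdKO replicate 5, the share on the last bases was the highest of the 10 samples there for 13, the lowest for Cdh6 and Cdh12, and neither for Cdh10, Cdh20, Pcdh1, Pcdh17 and Pcdh19. For Cdh6 it was 28.8% in cdKO replicate 5, 37.5% in control replicate 5 and 42.7% to 47.8% elsewhere. The bins of Cdh6 cover only 29.2% of its annotated exonic bases, so its last bins need not be the end of the transcript. For Pcdh1 the share was 0% in cdKO replicate 5 and at most 2.04% in any sample, too low for these bins to show a shift. For Pcdh17 it was 26.4% in cdKO replicate 5 and 20.3% to 52.6% elsewhere. For Cdh20 it was 37.8% in cdKO replicate 5, 100% in control replicate 5, which had 1 count, and 15.1% to 32.1% elsewhere. For Pcdh19 it was 49.5% in cdKO replicate 5. The higher shares were 78.3% of 23 counts in control replicate 5 and 62.5% of 8 counts in cdKO replicate 2. Levels of members such as Cdh2, Cdh11 and Pcdh18 in cdKO replicate 5 depended on which bins were summed, and values without the samples numbered 5 are given where they matter.

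Of the 32 members, 22 passed the filter on low counts and were tested among 17830 genes, namely 3 of 5 type I, 9 of 13 type II and 1 of 2 other cadherins and 9 of 12 protocadherins. None of the 22 differed between cdKO and control at a Benjamini-Hochberg adjusted p under 0.05 (edgeR quasi-likelihood test), and the share of all tested genes called was also 0%. At an unadjusted p under 0.05, 1 member, Cdh12, was lower in cdKO, beside 0.824% of all tested genes, and 0 were higher, beside 4.17%. With the DESeq2 Wald test 0 members passed at the adjusted threshold, beside 0.0643% of 29527 genes, 2 were lower at an unadjusted p under 0.05, Cdh10 and Cdh12, beside 1.58%, and 0 were higher, beside 3.25%. No tested member had groups that did not overlap, a pattern found in 0.404% of all tested genes. The lowest adjusted p of a member was 0.939. The median log2 fold change was -0.06 over the 22 members and -0.02 over all tested genes, with -0.37 for type I, -0.37 for type II and 0.05 for the protocadherins. Members spread widely around these medians, from -2.56 for Cdh12 to 1.34 for Pcdh10.

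**Figure D1:**
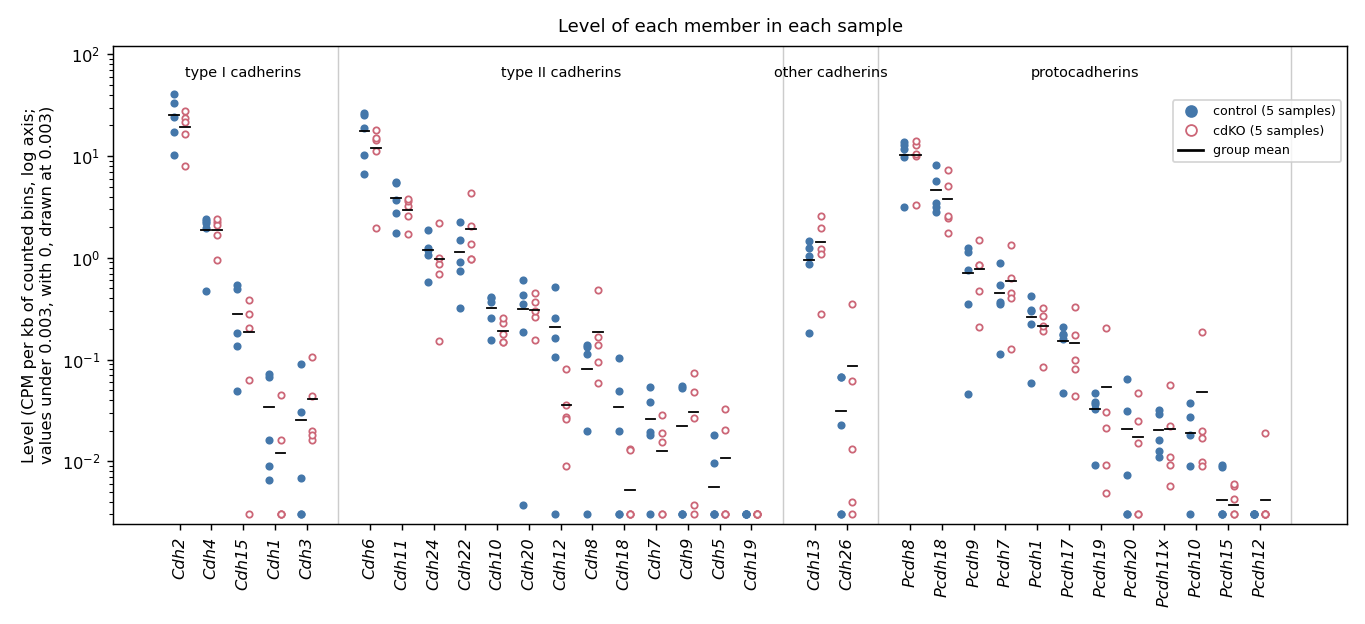
Level of each of the 32 members in each sample, in CPM per kilobase of counted bins on a log axis, by class. Points are samples (5 control, 5 cdKO), dashes are group means, and values under 0.003, including 0, are drawn at 0.003. Cdh2, Cdh6 and Pcdh8 lie highest, and the groups overlap for every tested member.

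Levels were compared between members per kilobase of counted bins. A read counts on every bin it overlaps, so genes cut into many short bins gain counts against genes with few long ones. Cdh6 had 12 bins over 2632 bases, Cdh2 20 over 8066 and Pcdh17 4 over 9509. Division by length does not remove this, and its size was not measured. Cdh2 (N-cadherin), the type I cadherin of neural cells, was the highest of the 32 at 25.2 ± 12.1 CPM per kilobase (SD, n = 5) in control. Cdh6, a type II cadherin, followed with 17.5 ± 8.86, then Pcdh8 with 10.2 ± 4.21, Pcdh18 with 4.66 ± 2.28 and Cdh11 with 3.84 ± 1.67 CPM per kilobase (SD, n = 5 each). Cdh2 lay above Cdh6 in 10 of 10 samples and Cdh11 above Cdh4 in 10 of 10, whereas Cdh6 lay above Pcdh8 in 7 and Pcdh18 above Cdh11 in 7, so these last neighbours did not differ beyond their spread. The order of the first 2 turned with the bins. On the last 1000 bases or more, per kilobase, Cdh6 lay above Cdh2 in 8 of 10 samples, all but the samples numbered 5, whereas Cdh11 stayed above Cdh4 in 10 of 10. Below them Cdh4 stood at 1.86 ± 0.794, Cdh24 at 1.19 ± 0.466, Cdh22 at 1.15 ± 0.752, Cdh13 at 0.96 ± 0.486 and Pcdh9 at 0.71 ± 0.512 CPM per kilobase (SD, n = 5 each). The order of Cdh24 and Cdh22 was not settled, since Cdh24 was the higher in 3 control samples and in 0 cdKO samples. Cdh2, Cdh6 and Pcdh8 together held 70.9% to 79.4% of the summed level of the 32 members in control and 67.5% to 77.9% in cdKO replicates 1 to 4, and 52.6% in cdKO replicate 5. The bins of Cdh6 cover 29.2% of its annotated exonic bases and those of Cdh2 100%, so the level of Cdh6 rests on part of the transcript. The last bins of Cdh6 need not be its transcript end, so its order against Cdh2 on the last bases may not compare like parts.

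By class, type I cadherins held 39% ± 2.75 of the summed level in control and 37.1% ± 3.82 in cdKO (SD, n = 5 each). Type II cadherins held 35.1% ± 3.68 and 31.4% ± 5.41, and the protocadherins 24.5% ± 4.25 and 28.2% ± 3.98. Cdh13 and Cdh26 together held 1.43% ± 0.753 in control and 3.33% ± 3.02 in cdKO, where cdKO replicates 1 and 5 gave 4.93% and 7.82% and the other 3 samples 0.456% to 2.02%. The ratio of type II to type I was 0.902 ± 0.117 in control and 0.853 ± 0.183 in cdKO. For each class the ranges of the groups overlapped. The shares carry the same limit as the levels, that a read counts on every bin it overlaps. Which class held most depended on the bins. On the last 1000 bases or more of each gene, type I held 24.5% in control and 25.7% in cdKO and type II 46.1% and 39.8%, so type II came out above type I. Type II includes Cdh6, whose bins cover 29.2% of its exonic bases, so the classes may not be compared on like parts there. With counts not divided by length, type I held 52.6% and 48.6% and type II 23.2% and 20.8%.

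**Figure D2:**
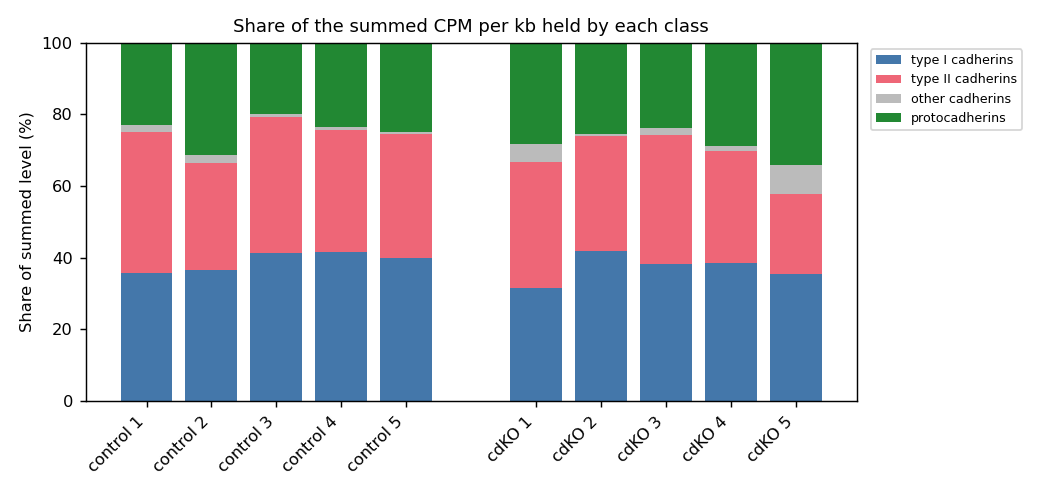
Share of the summed level (CPM per kilobase, in %) of the 32 members held by type I, type II and other cadherins and by protocadherins, 1 bar per sample. Type I holds 31.6% to 41.8% in every sample, and cdKO replicate 5 has the lowest type II share, 22.4%.

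Among the type I cadherins, Cdh2 received 197, 138, 271, 325 and 83.3 CPM in control replicates 1 to 5 and 133, 191, 174, 224 and 64.9 CPM in cdKO replicates 1 to 5. The cdKO values lay within the control range apart from replicate 5, and the log2 fold change was -0.37 (SE 0.40, adjusted p = 0.997, edgeR). On its last 1477 bases cdKO replicate 5 was the highest cdKO sample for Cdh2, with 55.5 CPM against 23.7 to 46 CPM. Cdh4 (R-cadherin), a close relative of Cdh2, lay between 14.4 and 17.2 CPM in control replicates 1 to 4 and at 3.4 CPM in control replicate 5, and measured 16.3, 12.2, 15.3, 17.5 and 6.84 CPM in cdKO, with a log2 fold change of 0.01 (SE 0.41). In both groups the sample numbered 5 was the low one. Cdh15 (M-cadherin), known from skeletal muscle, was at 0.161, 1.75, 0.444, 0.597 and 1.61 CPM in control and at 0.203, 1.24, 0.664, 0.906 and 0 CPM in cdKO, with a log2 fold change of -0.59 (SE 0.88). Muscle markers were low in all samples, with a sum over 5 genes of 1.34 to 5.41 CPM in control and 2.51 to 4.12 CPM in cdKO and with Pax7 at 0 counts throughout. Beyond the correlation given below, their part in Cdh15 was not tested.

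The epithelial type I cadherins were near the floor. Cdh1 (E-cadherin) had 3, 34, 27, 3 and 5 counts in control and 0, 0, 6, 17 and 0 in cdKO, and its paralogue Cdh3 (P-cadherin) 0 to 29 counts in control and 4 to 37 in cdKO. Neither passed the filter on low counts. Epithelium markers summed to 3.01 to 5.91 CPM over 7 genes in control and 1.24 to 6.06 CPM in cdKO, most of it Krt8 and Krt18.

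Type II cadherins were led by Cdh6 (chr15:13028701-13173675), which in other work marks subsets of developing neurons and neural crest. It received 49.7, 26.7, 66.6, 69.4 and 17.4 CPM in control and 29.2, 37.5, 39.8, 47.4 and 5.2 CPM in cdKO. Its log2 fold change was -0.53 (SE 0.51, adjusted p = 0.997, edgeR), with 4 of 5 cdKO values inside the control range. On the last 1120 bases of its counted bins cdKO replicate 5 was again the lowest sample for Cdh6, at 2.53 CPM against 35 to 56.5 CPM in the other cdKO samples. Cdh11 (OB-cadherin), known from mesenchyme and also from neurons, received 48.5, 24.5, 32.9, 49.4 and 15.5 CPM in control and 23.1, 28.6, 32.2, 33.4 and 15.3 CPM in cdKO, a log2 fold change of -0.37 (SE 0.35). On its last 2509 bases, by contrast, cdKO replicate 5 turned from the lowest to the highest cdKO sample for Cdh11, with 17.7 CPM against 10.7 to 14.8 CPM. Mesenchyme markers summed to 6.54 to 18.7 CPM over 7 genes in control and 9.89 to 21.7 CPM in cdKO, a sum below Cdh11 alone in 10 of 10 samples. Of the 6 tested, Col1a2 was higher in cdKO at an unadjusted p of 0.0475 (adjusted p = 0.939, edgeR), beside 4.17% of all tested genes. Col1a2 lay at 3.07 to 4.83 CPM in control and 3.87 to 9.09 CPM in cdKO. Over the 10 samples Cdh11 and the mesenchyme markers gave r = 0.28 (rho 0.20, adjusted p = 0.607 for r, permutation test). Beyond this correlation the part of these markers in the level of Cdh11 was not tested.

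Cdh24 lay at 2.9, 3.42, 5.12, 3.24 and 1.57 CPM in control and at 5.97, 2.35, 2.73, 1.88 and 0.414 CPM in cdKO, with a log2 fold change of -0.28 (SE 0.55). Cdh22 lay at 8.33, 5.6, 2.74, 3.36 and 1.18 CPM in control and at 15.9, 3.62, 7.59, 5.06 and 3.59 CPM in cdKO, with a log2 fold change of 0.75 (SE 0.54). Both had their highest value of the 10 samples in cdKO replicate 1, and without it the fold change was 0.22 for Cdh22 and -0.81 for Cdh24. Cdh20, a type II cadherin used by subsets of MNs, lay between 0.0148 and 2.44 CPM in control and between 0.631 and 1.8 CPM in cdKO, with a log2 fold change of -0.04 (SE 0.73). Cdh7, on chromosome 1 like Cdh20, had 0 to 54 counts in control and 0 to 23 in cdKO, with a log2 fold change of -1.01 (SE 1.09).

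Cdh12 (N-cadherin 2, ENSMUSG00000040452, chr15:20449265-21589533, plus strand of GRCm38) was the member with the lowest p. It had 292, 0, 128, 68 and 40 counts in control and 4, 13, 12, 17 and 23 counts in cdKO. In 4 of 5 control samples the level lay above every cdKO sample, and the remaining control sample had none. The share of all tested genes with such a pattern was not counted. The means were 1.18 ± 1.11 CPM in control and 0.202 ± 0.151 CPM in cdKO (SD, n = 5 each). The log2 fold change was -2.56 (SE 1.0, unadjusted p = 0.0228, adjusted p = 0.939, edgeR). By the exact two-sided permutation test on log2(CPM + 0.5), p was 0.0714. Without control replicate 1, the highest, the log2 fold change was -1.89. The counts were spread along the gene in the control samples that had any, over 12, 12, 12 and 11 of its 12 bins, and over 3 to 9 bins in cdKO.

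Cdh10, a type II cadherin of neurons that lies near Cdh12 (chr15:18818947-19014236), received 4.05, 1.54, 2.58, 3.72 and 4.13 CPM in control and 1.49, 2.31, 1.81, 2.54 and 1.48 CPM in cdKO. Again 4 of 5 control samples lay above every cdKO sample and control replicate 2 did not, a pattern not counted over all tested genes. The log2 fold change was -0.73 (SE 0.37, p = 0.0667, adjusted p = 0.94, edgeR) and the permutation p on log2(CPM + 0.5) was 0.0556 (exact, two-sided). On the last 1045 bases of Cdh10 the log2 fold change was -0.34. The type II cadherins Cdh6, Cdh9, Cdh10, Cdh12 and Cdh18 lie together on chromosome 15 between 13028701 and 23474418. Of the others there, Cdh18 had 22, 0, 8, 35 and 0 counts in control and 0, 0, 0, 5 and 3 in cdKO, and Cdh9 0 to 17 counts in control and 0 to 13 in cdKO, both too few to test. Control replicate 2, the lowest control sample for Cdh10 and Cdh12 and at 0 for Cdh18, had 107709534 counts in all, the most of any sample.

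Samples also differed in lumbar Hox genes, which mark the level of the cord from which cells came. Their sum over 7 genes was 0.994, 43.4, 57.1, 36.2 and 1.39 CPM in control and 55.5, 15.2, 46.8, 36.1 and 104 CPM in cdKO, so control replicates 1 and 5 were low. Of the 7, Hoxc11 was higher in cdKO at an unadjusted p of 0.0272 (adjusted p = 0.939, edgeR), beside 4.17% of all tested genes. Hoxc11 had 2.37 CPM in cdKO replicate 5 and at most 0.445 CPM elsewhere. The low pair had the highest Cdh10 of the controls, at 4.05 and 4.13 CPM. For Cdh12 they went apart, since control replicate 1 was the highest control sample and control replicate 5, at 0.592 CPM, the second lowest and the lowest with any counts. The part of axial level in either gene was not tested.

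Promoter sequence was read from RefSeq (GRCm38.p6), as windows of 300 bases around the annotated start, for the 21 members listed there. Not in the table were Cdh1, Cdh2, Cdh3, Cdh4, Cdh5, Cdh11, Cdh13, Cdh19, Pcdh1, Pcdh11x and Pcdh12. The core ATTGAT bound by Onecut factors, searched on both strands as ATTGAT or ATCAAT, was found in 1 of the 21 (4.76%), Pcdh17, and in 8.63% of 27025 genes. The E-box CAGGTG bound by Zeb and Snail factors, searched as CAGGTG or CACCTG, was found in 3 of the 21 (14.3%), namely Cdh7, Pcdh7 and Pcdh15, and in 22.6% of all genes. These matches describe the letters of these windows only. The windows of Cdh12, the member with the lowest p, and of Pcdh17, the one with a Onecut core, are given in lower case with the match in capitals, both on the plus strand.

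Cdh12, chr15:21111202-21111501, a window inside the annotated gene with no match: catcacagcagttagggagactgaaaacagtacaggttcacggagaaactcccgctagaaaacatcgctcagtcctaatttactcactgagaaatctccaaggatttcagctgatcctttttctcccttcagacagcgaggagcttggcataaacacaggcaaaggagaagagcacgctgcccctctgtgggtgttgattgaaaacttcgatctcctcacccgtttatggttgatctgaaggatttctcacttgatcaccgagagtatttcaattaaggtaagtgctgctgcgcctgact

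Pcdh17, chr14:84443313-84443612, with 1 match: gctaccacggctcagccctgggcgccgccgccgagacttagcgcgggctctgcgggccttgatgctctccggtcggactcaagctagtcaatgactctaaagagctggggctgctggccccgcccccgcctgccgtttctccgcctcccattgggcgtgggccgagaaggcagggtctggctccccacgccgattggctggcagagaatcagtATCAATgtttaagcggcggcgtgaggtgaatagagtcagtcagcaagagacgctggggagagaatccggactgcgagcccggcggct

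Cdh8, a type II cadherin of neuronal subsets, lay at 0.874, 0.154, 1.04, 1.07 and 0 CPM in control and at 3.7, 0.452, 1.07, 0.739 and 1.28 CPM in cdKO. Its log2 fold change of 1.20 (SE 0.89, adjusted p = 0.997, edgeR) became 0.49 without cdKO replicate 1. In that sample its 291 counts lay on 19 of 24 bins, whereas in cdKO replicate 5 its 65 counts lay on 5 of 24. Cdh5 (VE-cadherin), which defines endothelium, had 0 to 8 counts per sample, and endothelial markers other than Egfl7 were low, with Pecam1 between 0.0576 and 1.71 CPM. Cdh19, a cadherin of neural crest and Schwann cell precursors, had 0 counts in all 10 samples, which allows up to 0.0288 to 0.0591 CPM per sample. Sox10, a marker of the same cells, lay between 0.0542 and 0.267 CPM.

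**Figure D3:**
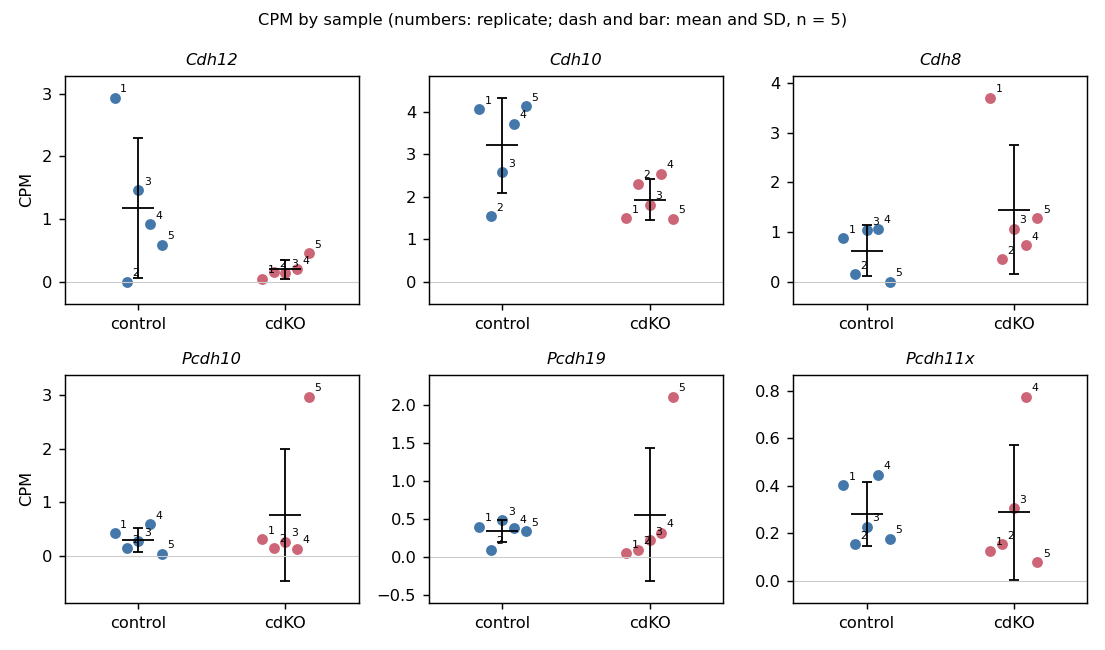
CPM of Cdh12, Cdh10, Cdh8, Pcdh10, Pcdh19 and Pcdh11x in each sample, on linear axes that differ between panels. Points are samples with their replicate number, and dash and bar are the mean and SD (n = 5). For Cdh12 and Cdh10, 4 of 5 control samples lie above all cdKO samples, a pattern not counted over all tested genes. Single cdKO samples carry the high means of Cdh8, Pcdh10 and Pcdh19.

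Of the other cadherins, Cdh13 (T-cadherin), which is anchored to the membrane by a lipid and lacks the inner domain, received 16.3, 14.1, 9.85, 11.7 and 2.06 CPM in control and 29.2, 3.15, 13.6, 12.4 and 22.2 CPM in cdKO. The cdKO samples spread beyond the control range on the upper side in replicates 1 and 5, and the log2 fold change was 0.58 (SE 0.56, adjusted p = 0.997, edgeR). Cdh26 had 20, 21, 0, 5 and 0 counts in control and 83, 0, 15, 1 and 2 counts in cdKO and was not tested.

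Among the protocadherins, Pcdh8 (chr14:79766775-79771312), known from the segmenting paraxial mesoderm and from synapses, received 53.6, 58, 44, 61.7 and 14.3 CPM in control and 58.1, 45.7, 47.8, 64.1 and 15.1 CPM in cdKO. The ranges of the groups nearly coincided, each with its sample numbered 5 below the other 4, and the log2 fold change was -0.01 (SE 0.43). Of its counts, 30.7% lay on bins shared with the transcript Gm9748, and since strand was not used in the counting the 2 cannot be told apart there. Pcdh18 received 15, 16.8, 30.8, 43.9 and 18.5 CPM in control and 13.1, 27.2, 13.7, 39 and 9.38 CPM in cdKO, with a log2 fold change of -0.29 (SE 0.44). Pcdh9, an early neuronal protocadherin, received 7.68, 2.39, 5.18, 8.53 and 0.311 CPM in control and 5.72, 1.42, 5.74, 3.18 and 10 CPM in cdKO, with a log2 fold change of 0.11 (SE 0.68). Pcdh7 (BH-protocadherin) received 9.33, 3.69, 3.91, 5.79 and 1.2 CPM in control and 4.79, 1.35, 6.73, 4.26 and 14.1 CPM in cdKO, with a log2 fold change of 0.38 (SE 0.59), and 47.2% of its counts lay on bins shared with 4932441J04Rik. For Pcdh7 and Pcdh9 control replicate 5 was the lowest and cdKO replicate 5 the highest sample, and without cdKO replicate 5 the log2 fold changes were -0.17 and -0.27.

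Pcdh10, Pcdh11x and Pcdh19 were low genes whose fold changes rested on 1 sample each. Pcdh10 (OL-protocadherin), of axon-bearing neurons, lay at 0.432, 0.144, 0.284, 0.597 and 0.0444 CPM in control and at 0.318, 0.155, 0.271, 0.143 and 2.96 CPM in cdKO. Its log2 fold change of 1.34 (SE 0.91, adjusted p = 0.983, edgeR) became -0.45 without cdKO replicate 5, where its 150 counts lay on 13 of 14 bins. Pcdh19, an X-linked protocadherin that pairs with Cdh2, lay at 0.402, 0.096, 0.489, 0.38 and 0.34 CPM in control and at 0.0508, 0.0952, 0.221, 0.322 and 2.11 CPM in cdKO, and its log2 fold change of 0.69 (SE 0.87) became -0.98 without cdKO replicate 5. In that sample 49 of its 107 counts lay on the bin chrX:133583105-133587901 at the end of the gene. Pcdh11x, also X-linked, lay at 0.402, 0.154, 0.228, 0.448 and 0.177 CPM in control and at 0.127, 0.155, 0.307, 0.775 and 0.0788 CPM in cdKO, and its log2 fold change of 0.05 (SE 0.65) became -0.78 without cdKO replicate 4. Pcdh1 lay between 0.518 and 3.69 CPM and Pcdh17 between 0.419 and 3.13 CPM over the 10 samples, with log2 fold changes of -0.28 (SE 0.50) and -0.08 (SE 0.56). The endothelial Pcdh12 had 0 to 9 counts, Pcdh15, a protein of hair cell tip links, 0 to 21, and Pcdh20 0 to 26, and none of the 3 was tested.

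**Figure D4:**
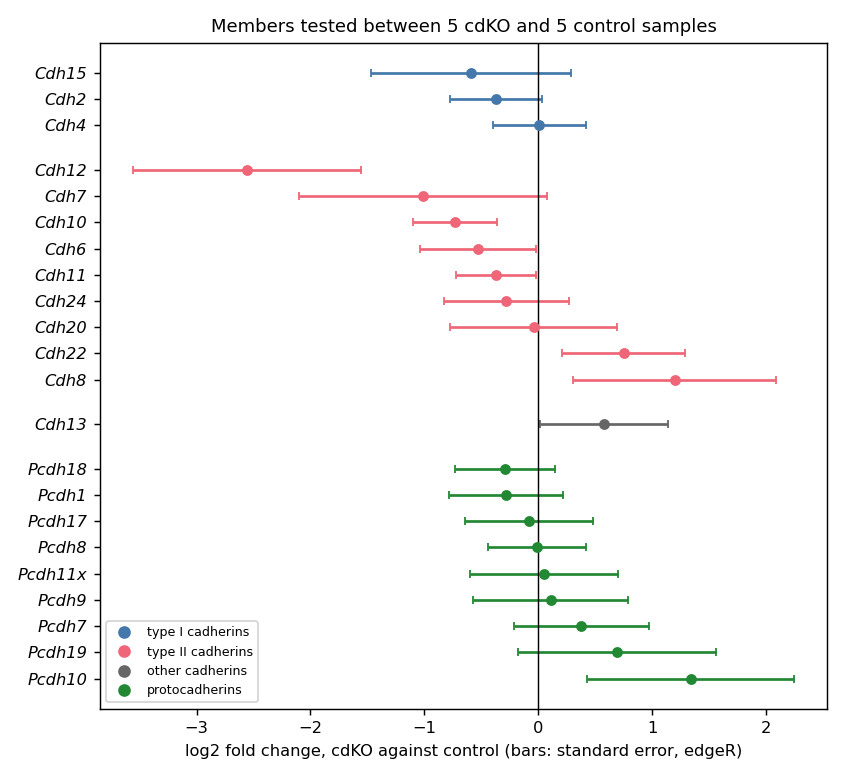
Log2 fold change of cdKO against control for the 22 tested members by class, with bars of 1 standard error (edgeR). The point of Cdh12 at -2.56 lies farthest from 0, and no member passes an adjusted p of 0.05.

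Part of the spread within groups was shared by many members. Control replicate 5 was the lowest of its group for 14 of the 22 tested members and cdKO replicate 5 for 12, and in 8 members (Cdh2, Cdh4, Cdh6, Cdh11, Cdh22, Cdh24, Pcdh1 and Pcdh8) both were lowest, which is 36.4% of the members beside 18.6% of all tested genes. Counted on the last 1000 bases or more, control replicate 5 was the lowest for 9 members and cdKO replicate 5 for 6, while cdKO replicate 5 was the highest of its group for 11. Of cdKO replicate 5 a total of 198569 bins had counts, against 243970 to 271591 in the other samples, and its TMM factor was 0.7175, the lowest. Control replicate 4 was the highest of its group for 10 members and cdKO replicate 4 for 8. Apart from the joint count, these counts were not set beside all tested genes, so they cannot be called particular to the members. With both samples numbered 5 left out, Cdh12 had a log2 fold change of -3.26, Cdh10 of -0.56 and Pcdh10 of -0.72.

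**Figure D5:**
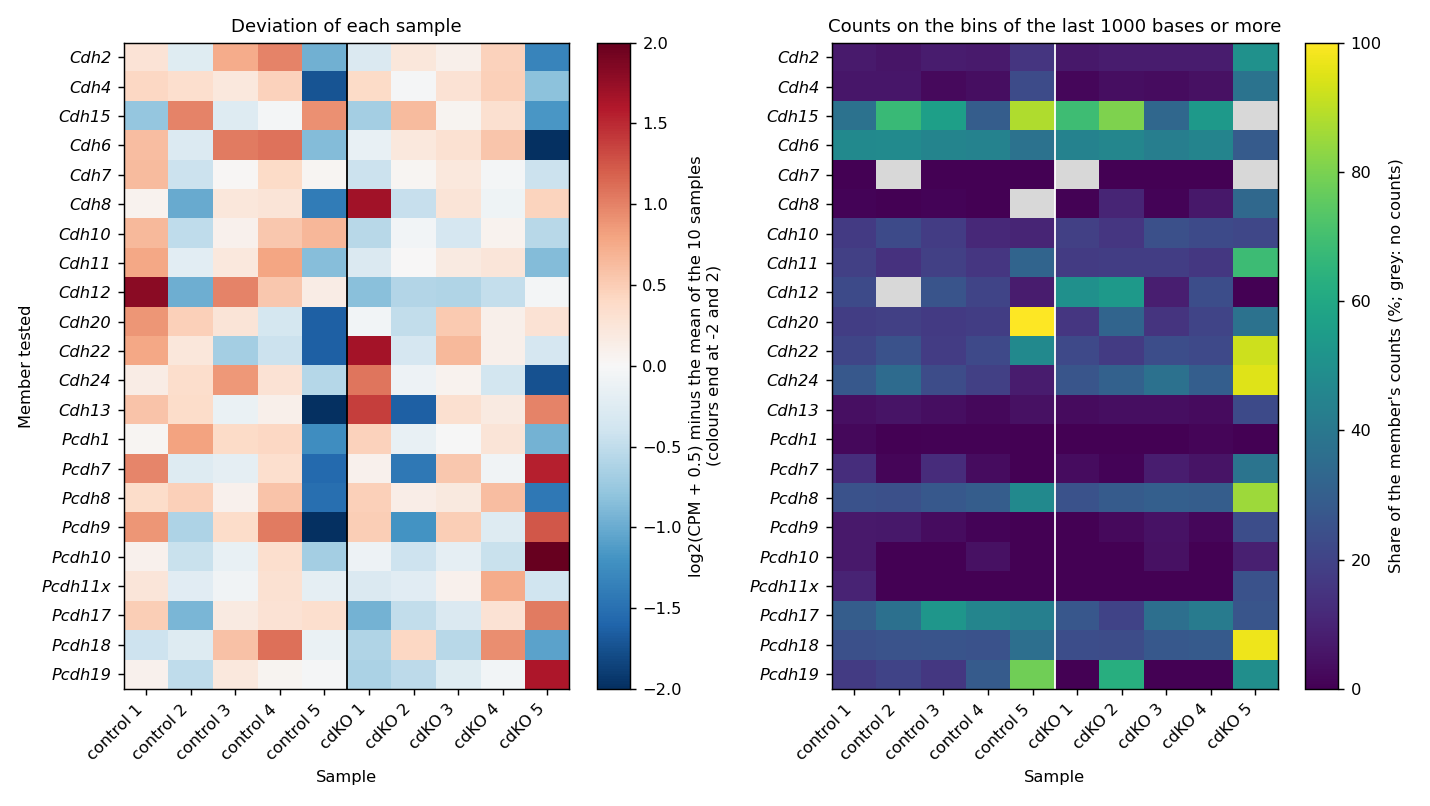
Left, log2(CPM + 0.5) of each of the 22 tested members in each sample minus its mean over the 10 samples, with colours ending at -2 and 2. Right, the share of each member's counts (%) on the bins of its last 1000 bases or more. Cdh2, Cdh6, Cdh11 and Pcdh8 are low in the samples numbered 5, and in cdKO replicate 5 the share on the last bases is 50.7% for Cdh2, 85.2% for Pcdh8 and 97.5% for Pcdh18.

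Members known from other cell types were set beside markers of those cells over the 10 samples, in 8 pairs that could be computed. Pearson's r lay between -0.52 for Cdh15 with muscle markers (Spearman's rho -0.61) and 0.39 for Cdh1 with epithelium markers (rho 0.41), and none passed, with Benjamini-Hochberg adjusted p of 0.607 to 0.955 for r and 0.322 to 0.708 for rho (permutation tests). Without the 2 samples farthest from the median of the marker list, r was -0.73 for Cdh15 and -0.08 for Cdh1. Cdh2 with MN progenitor markers gave r = 0.02 (rho 0.14) and 0.24 without those 2 samples, and r was 0.41 with library size only in place of TMM. Groups of 5 are too few for a value within each group.

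The main catenins were present in all samples. Ctnnb1 (beta-catenin), which binds the cadherin tail, had 844 ± 293 CPM in control and 740.4 ± 291 CPM in cdKO (SD, n = 5 each), a log2 fold change of -0.19 (SE 0.38), and Ctnna1 (alpha-catenin), which links it to actin, 204 ± 19.5 and 175 ± 62.4 CPM, a log2 fold change of -0.22 (SE 0.30). All 14 catenins and junction partners were tested and 0 had an unadjusted p under 0.05 in either direction, with a median log2 fold change of 0.06. Ctnna3, another alpha-catenin, was at 0 counts in control replicates 2 and 5 and at most 0.848 CPM in the other samples. Among 11 tested flamingo, Fat, Dachsous and calsyntenin cadherins, which lie outside the classical families, 2 were lower in cdKO at an unadjusted p under 0.05, beside 0.824% of all tested genes, and 0 higher, beside 4.17%, with a median of -0.02, the same as over all tested genes. Celsr1, a planar polarity cadherin, was at 9.84 ± 3.39 CPM in control and 5.46 ± 1.84 CPM in cdKO (SD, n = 5 each), a log2 fold change of -0.85 (SE 0.34, adjusted p = 0.939, edgeR). Fat3, a giant cadherin of neurons, was at 8.48 ± 4.33 and 3.69 ± 1.79 CPM, a log2 fold change of -1.20 (SE 0.48, adjusted p = 0.939, edgeR). Of the repressors of cadherin genes, Zeb1 and Zeb2 had 48.7 ± 11.4 and 75.4 ± 27.1 CPM in control (SD, n = 5 each), with log2 fold changes of -0.31 (SE 0.31) and -0.16 (SE 0.35). Snai1 lay between 0 and 0.0796 CPM and was not tested. Twist1 was higher in cdKO at an unadjusted p of 0.0123 (adjusted p = 0.939, edgeR), beside 4.17% of all tested genes. It was 1 of 4 repressors tested and reached 1.62 CPM in cdKO replicate 5 and at most 0.578 CPM elsewhere.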

How the data were processed

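Sorted YFP-positive cells of e10.5 spinal cord had been sequenced in 5 control and 5 cdKO samples, grouped here by their titles. The sample descriptions give a different stage number for most samples, and the stage of the titles is used. The deposited values are the authors' raw read counts on exon bins, 1 table per sample. The submitters' processing notes name bcl2fastq 2.17, Trimmomatic 0.36, STAR 2.5.2b, Subread 1.5.2, DESeq2 and the build GRCm38. Library preparation is given as ultra-low input in the methods and as a NEBNext Ultra kit in the labels.

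Bins of at most 5 bases flanked by adjoining bins (3712) held a median of 1.02 times the count of their lower neighbour, so a read counts on every bin it overlaps. For all 16 intervals present on the plus and the minus strand the counts were equal, so strand was not used. Bins were summed to genes of GENCODE M21, and 3987 bins without a single assignable gene (1.24% of counts) were left out. The bins kept cover only part of the exonic bases of some members, such as 29.2% for Cdh6 and 73.2% for Pcdh17. Whether any bin left out belonged to a member is not shown. After filterByExpr with a minimum count of 10 and TMM scaling, the quasi-likelihood test of edgeR 4.0.16 in R 4.3.3 was run on all genes, with Benjamini-Hochberg adjustment. The common biological coefficient of variation was 0.539. Single members were also compared by an exact two-sided permutation test of the mean of log2(CPM + 0.5) over 252 arrangements. Correlations used 100000 permutations. Shares and levels of classes were described without a test. The fit was tested on simulated counts.

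The members and lists were chosen with earlier results of these data known. Values in every sample are given for members with an unadjusted edgeR p under 0.05, for members whose groups do not overlap, for the 4 highest of a class per kilobase in control, and for those whose fold change moves by over 1.5 times without 1 sample. Cdh10 was added after its values were seen, as were the shares on the last bases of each gene. Of the partner and marker lists, genes with an unadjusted p under 0.05 and defining markers are named. Alternatives were other scalings, DESeq2 1.42.0, limma-voom (limma 3.58.1) with and without quality weights, robust edgeR, other filters, a pseudocount of 1, the replicate number as a block, other sums of bins and each sample left out. Leaving out both samples numbered 5, and class shares from counts not divided by length, were added after seeing the data.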

Additional observations from a re-analysis of the deposited data

Results flagged for a closer look

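In 4 of 44 groups of 5 samples (22 tested members in 2 groups) the highest or lowest sample lay far from the others by Dixon's criterion, where about 2.2 would be expected by chance. Cdh4 was at 3.4 CPM in control replicate 5, against 14.4 to 17.2 CPM in the other controls. Cdh8 was at 3.7 CPM in cdKO replicate 1, against 0.452 to 1.28 CPM in the other cdKO samples. In cdKO replicate 5, Pcdh10 was at 2.96 CPM against 0.143 to 0.318 CPM, and Pcdh19 at 2.11 CPM against 0.0508 to 0.322 CPM in the other cdKO samples.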

How the results depend on the processing

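No member had an adjusted p under 0.05 as reported or in any of 23 alternative fits, over which the lowest adjusted p of a member was 0.587. Of the 22 tested members, 10 kept their direction in every fit that included them, Cdh12 and Cdh10 among them, and 12 reversed in at least 1 fit. The cause was not tested.

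The number of members lower in cdKO at an unadjusted p under 0.05, 1 as reported, was 2 with library size only and with the DESeq2 Wald test. It was 0 with limma-voom, with quality weights, with at least 10 counts in every sample, with the highest bin, with the last 1000 bases and with the replicate block, and 0 to 2 with each sample left out (0 without control replicate 1, 2 without control replicate 2 or without cdKO replicate 4). At least 10 counts in every sample removes Cdh12 from the test, as do the highest bin and the last 1000 bases.

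With library size only, which moved the median of all genes to -0.15, the log2 fold change was -0.11 for Cdh4, -0.18 for Pcdh9 and -0.04 for Pcdh11x, and r was -0.10 for Cdh5 with endothelial markers and 0.41 for Cdh2 with MN progenitor markers. With limma-voom the log2 fold change was -1.22 for Cdh12, 0.52 for Pcdh10, 2.00 for Cdh8, 0.72 for Cdh20, 0.01 for Pcdh8, -0.22 for Pcdh11x and -0.41 for Pcdh19. With quality weights it was -0.29 for Cdh7, 0.26 for Cdh8, -0.11 for Cdh13, 0.69 for Cdh15, -0.23 for Pcdh7, 0.10 for Pcdh8, -0.53 for Pcdh9, -0.55 for Pcdh10 and -1.05 for Pcdh19. With bins of a single gene it was 0.03 for Pcdh8 and 0.78 for Pcdh7. With the highest bin it was -0.16 for Cdh4, 0.10 for Cdh20, -0.31 for Pcdh7, -0.54 for Pcdh9 and 0.04 for Pcdh17. With the last 1000 bases it was -0.08 for Cdh2, 1.22 for Cdh13, 1.12 for Pcdh7, -0.02 for Cdh4, 0.05 for Cdh20, 0.04 for Cdh24 and 0.07 for Pcdh8. Without both samples numbered 5 it was 0.16 for Cdh13, -0.08 for Cdh4, 0.02 for Cdh15, -0.42 for Pcdh7, -0.58 for Pcdh9, -0.72 for Pcdh10 and -0.99 for Pcdh19.

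With each sample left out, the log2 fold change ranged from -0.24 to 0.17 for Cdh4, -0.36 to 0.34 for Cdh20, -0.17 to 0.77 for Pcdh7, -0.24 to 0.21 for Pcdh8, -0.27 to 0.38 for Pcdh9, -0.45 to 1.69 for Pcdh10, -0.78 to 0.27 for Pcdh11x, -0.62 to 0.14 for Pcdh17 and -0.98 to 0.98 for Pcdh19, and r from -0.03 to 0.54 for Cdh11 with mesenchyme markers and -0.19 to 0.32 for Cdh2 with MN progenitor markers.

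The labels do not say whether same-numbered samples share a litter or a day. Their deviations correlated at 0.0787, -0.257, 0.114, 0.321 and 0.283 for numbers 1 to 5, a mean of 0.108 against -0.0147 for other pairs, and 2 of 5 control samples correlated best with their own number, so the numbers were not taken as pairs. With the replicate block the log2 fold change was 0.35 for Cdh20, 0.00 for Pcdh8, -0.26 for Pcdh11x and -0.34 for Pcdh19, -1.86 for Cdh12, 0.13 for Pcdh7 and 0.21 for Pcdh10.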
